A study of Drosophila melanogaster with 30 samples.

Results

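The dpr genes (defective proboscis extension response) and the beat genes (beaten path) encode 2 families of cell-surface immunoglobulin proteins of Drosophila melanogaster. Genes named dpr followed by a number, or beginning with beat-, were taken from the count tables and genes of chromosome 4 were left out. This gave 32 of 14284 genes, made up of 18 dpr and 14 beat genes; 1 matching gene on chromosome 4, dpr7, was dropped. The gene listed as plain dpr was not matched by the name rule.

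Dpr proteins bind the DIP family of immunoglobulin proteins in cell-specific pairs, and the pairs mark which neurons contact each other as synapses form. Beat proteins bind the Side family. Beat-Ia is the best known of them, a protein of motor axons that lets an axon leave its bundle and that recognises Side on cells along the route. Both families are studied as surface labels of differentiated neurons, so their chromatin can be set against that of the dividing stem cells from which neurons arise.

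Chromatin of cells isolated from brains of wandering third-stage (L3) larvae was cut with micrococcal nuclease and profiled by ChIP-seq for 2 marks. H3K4me3 (trimethylated histone H3 lysine 4) lies at the starts of active genes, and H3K27me3 (trimethylated lysine 27) is laid down by the Polycomb repressive complex PRC2. Each mark had 2 libraries from neurons, 2 from neuroblasts under brat RNAi and numb RNAi together (called brat numb RNAi here), 2 from neuroblasts under brat RNAi alone and 2 from type I neuroblasts, the neural stem cells without RNAi. The RNAi groups are labelled as tumor neuroblasts. Brat, a translational repressor, and Numb, which dampens Notch signalling, both keep the progeny of neuroblasts from returning to a stem cell state. The drivers, the RNAi lines and the strain of the type I and neuron groups are not given in the sources used here, no group of normal type II neuroblasts is among the samples, and histone marks do not measure the knockdowns. The sources do not say whether both libraries of a group came from separate animals, so p-values measure the spread between these samples, which may be technical.

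H3K4me3 libraries held between 2461222 and 12258131 counts, and H3K27me3 libraries between 15281722 and 25009648. The labels were set against marker genes by H3K4me3. The neuroblast markers dpn, wor, mira and CycE were lower in neurons than in the mean of the 3 neuroblast groups (4 of 5 markers past the threshold of an adjusted p of 0.05; the other is ase), and the synaptic vesicle genes nSyb and Syt1 were higher (2 of 5 neuron markers). The level of H3K4me3 is given below as TMM-scaled CPM (counts per 1e6 counts) in the 501-base window at the gene start. The summed level of the 5 neuron markers was 755 and 455 CPM in neurons, 162 and 211 CPM in brat numb RNAi, 161 and 188 CPM in brat RNAi, and 498 and 215 CPM in type I neuroblasts. Type I replicate 1 therefore carried more H3K4me3 at neuron markers than the other 5 neuroblast libraries. It also had the highest summed level of the 5 neuroblast markers, at 954 CPM. The other neuroblast libraries stood at 411 to 850 CPM on that sum, and the neuron libraries at 142 and 145 CPM. Of these markers, ase was lower in brat RNAi than in neurons, at 8.41 and 34.1 CPM against 58.9 and 51.1 CPM. It stood at 102.5 and 171.2 CPM in brat numb RNAi and 156.5 and 180.2 CPM in type I neuroblasts. Summed levels ran from 25.1 to 72.1 CPM for 5 glia markers, from 20.0 to 71.7 CPM for 5 hemocyte markers and from 74.6 to 155 CPM for 4 muscle markers, most of the last from Mef2, and none of these genes was at 0 reads in any library. Libraries of a group differed by far more than counting noise, with a chi-square per degree of freedom of 10.1 to 269, so none was a repeat deposit.

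The 32 genes are long. The median gene model was 31.9 kb, longer than 95.9% of all genes, and 25 of the 32 exceeded 10 kb, against 13.3% of all genes. The longest was dpr8 on X (140.146 kb) and the shortest was dpr19 on 2L (3.417 kb). By chromosome arm, 15 lay on 3R, 9 on 2L, 3 on 3L, 3 on X and 2 on 2R, in the dm3 build of the deposited tables. There were 7 groups of neighbours that stood within 150 kb of each other: beat-Ib, beat-Ic and beat-Ia (2L:15905134-16081688), beat-IIIb, beat-IIIa and beat-IIIc (2L:16973091-17260732), dpr6 and dpr10 (3L:9967719-10179205), dpr5 and dpr4 (3R:7325706-7368671), dpr17 and dpr15 (3R:7920600-7984317), beat-Vc, beat-Va and beat-Vb (3R:8571758-8760535), and beat-IIb and beat-IIa (3R:13057975-13191839). None of the 32 start windows overlapped the window of another gene. Gene models of 11 members overlapped other genes, by at most 11.37% of their bases (beat-Ib), and H3K27me3 reads there are shared. Each gene has 1 start window, so H3K4me3 at further starts of these long genes was not measured.

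H3K4me3 at the starts of dpr and beat genes was higher in neurons than in the mean of the neuroblast groups for 4 of the 32 genes by the test given below, and single neuroblast libraries reached the level of neurons. The median gene of the 32 stood at 13.5 and 21.1 CPM in neurons, 14.6 and 4.79 CPM in brat numb RNAi, 6.13 and 9.16 CPM in brat RNAi, and 11.2 and 6.57 CPM in type I neuroblasts. The median of all genes tested also moved between libraries, from 10.6 to 22.8 CPM, so levels were ranked within each library as well. By rank the median member was at percentile 52.7 and 50.6 in neurons, 30.7 and 16.4 in brat numb RNAi, 24.0 and 20.5 in brat RNAi, and 50.5 and 28.5 in type I neuroblasts. Type I replicate 1 was thus close to the neuron libraries, and the other 5 neuroblast libraries lay below. For the other 1827 genes over 10 kb the median percentile was 53.8 and 54.1 in neurons and 45.0 to 52.7 over the neuroblast libraries. In these bulk samples, a change in the mix of cells and a change of the mark within cells cannot be told apart.

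**Figure D1:**
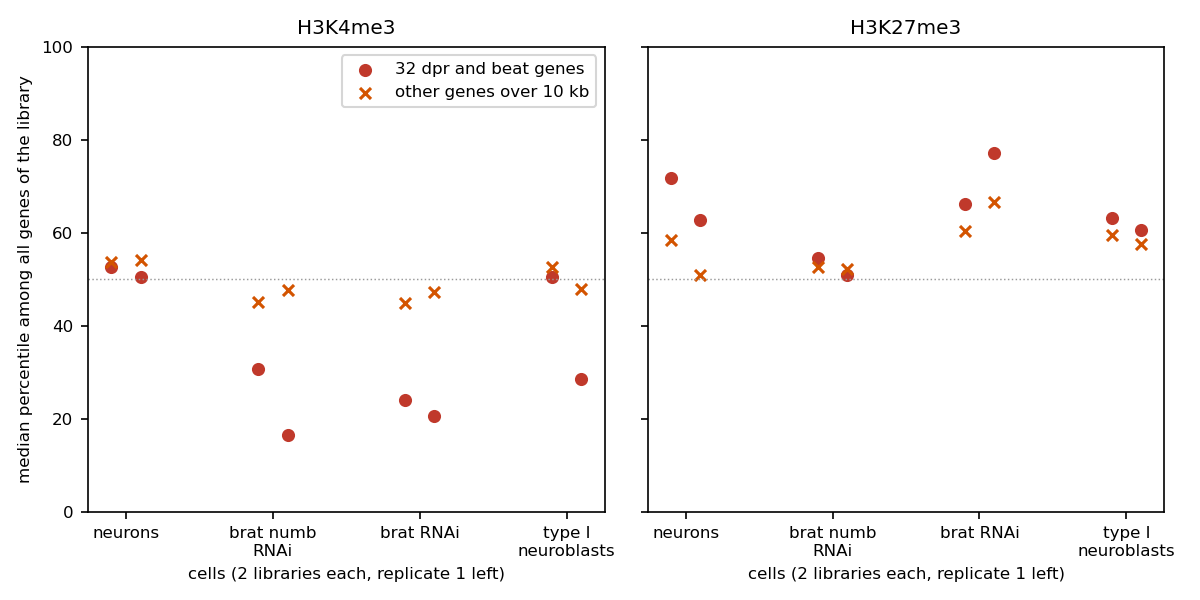
Median percentile of the 32 dpr and beat genes (circles) and of the other genes over 10 kb (crosses) among all genes of each library, for H3K4me3 (left) and H3K27me3 (right), with 2 libraries per group. For H3K4me3 the 32 genes sit at 52.7 and 50.6 in neurons and between 16.4 and 50.5 in the neuroblast libraries; for H3K27me3 they sit lowest in brat numb RNAi, at 54.6 and 50.9.

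Against the mean of the 3 neuroblast groups, 4 of the 32 genes rose in neurons and none fell (edgeR quasi-likelihood test, Benjamini-Hochberg adjusted p under 0.05 over 14185 genes). Of all genes tested 3.23% were called, and 1.93% of all genes tested were called as higher. Among other genes over 10 kb, 126 of 1827 were called as higher, beside 3 of the 25 members over 10 kb. The 4 were dpr19, dpr8, beat-VI and beat-IV, so each family gave 2. At an unadjusted p under 0.05, 12 of the 32 were higher and none lower, where 4.48% of all genes were higher and 4.97% lower; of the other genes over 10 kb, 298 of 1827 were higher. The median log2 fold change was 1.14 for the 32 genes, 1.06 for dpr and 1.20 for beat, beside 0.06 for all genes and 0.37 for the other genes over 10 kb. The mean in neurons was above that of the neuroblast groups for 30 of the 32 genes and for 55.3% of all genes. The exceptions among the 32 were dpr18 and beat-Vc. Of the other genes over 10 kb, 73.1% had a higher mean in neurons. In 15 of the 32 both neuron libraries lay above all 6 neuroblast libraries, which held for 3.55% of all genes; by rank within the library, a measure added after the data were seen, it held for 20 of the 32 and for 8.57% of all genes.

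dpr19 had the highest mean H3K4me3 of the 32 and the largest fold change in this comparison. It stood at 149 and 79.1 CPM in neurons, 18.6 and 11.7 CPM in brat numb RNAi, 13.4 and 9.64 CPM in brat RNAi, and 66.3 and 17.8 CPM in type I neuroblasts. Both neuron libraries were above all neuroblast libraries, and type I replicate 1 was the nearest to them. The log2 fold change in neurons over the neuroblast groups was 2.55 ± 0.50 (SE), with an adjusted p of 5.99e-05 by edgeR. dpr19 was also the only member called in the test of any difference among the 4 groups (adjusted p = 0.000211 by edgeR). There 2.05% of all genes were called, and 108 of the other 1827 genes over 10 kb. An unadjusted p under 0.05 was found for 7 members, 7.35% of all genes and 309 of those 1827.

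dpr8 lies at the other end of the range, among the 3 lowest members. Even in neurons it was near the median of all genes, which was 11.1 and 20.5 CPM in those libraries. Its percentile among all genes was at most 51.7 in any library. It stood at 12.4 and 20.5 CPM in neurons, 5.95 and 3.33 CPM in brat numb RNAi, 3.65 and 0.964 CPM in brat RNAi, and 4.97 and 4.26 CPM in type I neuroblasts. The neuron libraries were above every neuroblast library, the lowest of which held 3 reads. The log2 fold change was 2.13 ± 0.59 (SE, edgeR adjusted p = 0.0145).

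beat-VI, whose protein binds Side-II, stood at 39.4 and 36.7 CPM in neurons, 15.9 and 4.14 CPM in brat numb RNAi, 7.10 and 15.1 CPM in brat RNAi, and 14.6 and 6.84 CPM in type I neuroblasts. The neuron libraries agreed closely and lay above all others, while the neuroblast libraries varied among themselves within each group. Its log2 fold change was 1.85 ± 0.57 (SE, edgeR adjusted p = 0.038). beat-IV had 30.9 and 34.1 CPM in neurons, 11.0 and 4.44 CPM in brat numb RNAi, 6.08 and 7.71 CPM in brat RNAi, and 18.0 and 7.46 CPM in type I neuroblasts. Neurons were again on top, and here type I replicate 1 was the highest neuroblast library, while at beat-VI it was brat numb RNAi replicate 1. The log2 fold change of beat-IV was 1.90 ± 0.59 (SE, edgeR adjusted p = 0.0449).

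With a library left out, calls were lost while the fold changes stayed above 0, at 1.55 to 2.58 for dpr8, 1.63 to 2.25 for beat-VI and 1.62 to 2.15 for beat-IV on the log2 scale. Where this leaves a group with 1 library, that library is assumed to vary like the other groups. dpr8, beat-VI and beat-IV lost their calls when either type I library, brat RNAi replicate 2 or neuron replicate 2 was left out. beat-VI and beat-IV also lost theirs without brat RNAi replicate 1 or brat numb RNAi replicate 2. None of the 32 was called without neuron replicate 1. The number called over all genes also changed with the library left out. For dpr19 the log2 fold change ran from 2.03 to 2.96. Library totals in place of TMM scaling left dpr19 alone, while 1134 of all 14185 genes were called, 518 of them higher. DESeq2 called 8 of the 32, all higher, among them dpr19, beat-IV and beat-VI but not dpr8. Of all genes it called 784, 321 of them higher. Loess offsets called 6, the 4 above with dpr11 and dpr12, beside 681 of all genes, 459 of them higher. Neuron marker H3K4me3 was higher in neurons, as these genes were. Type I replicate 1 was above type I replicate 2 on both, and also on the summed neuroblast markers (954 against 802 CPM). Within the neuron and the brat numb RNAi libraries the markers and the median member differed in opposite directions in CPM. By rank the median member went with the markers in neurons (percentiles 52.7 and 50.6). In brat numb RNAi it stayed opposite by rank (30.7 and 16.4). In brat RNAi it went with the markers in CPM but against them by rank (24.0 and 20.5). The part of other cells in the result was not tested.

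**Figure D2:**
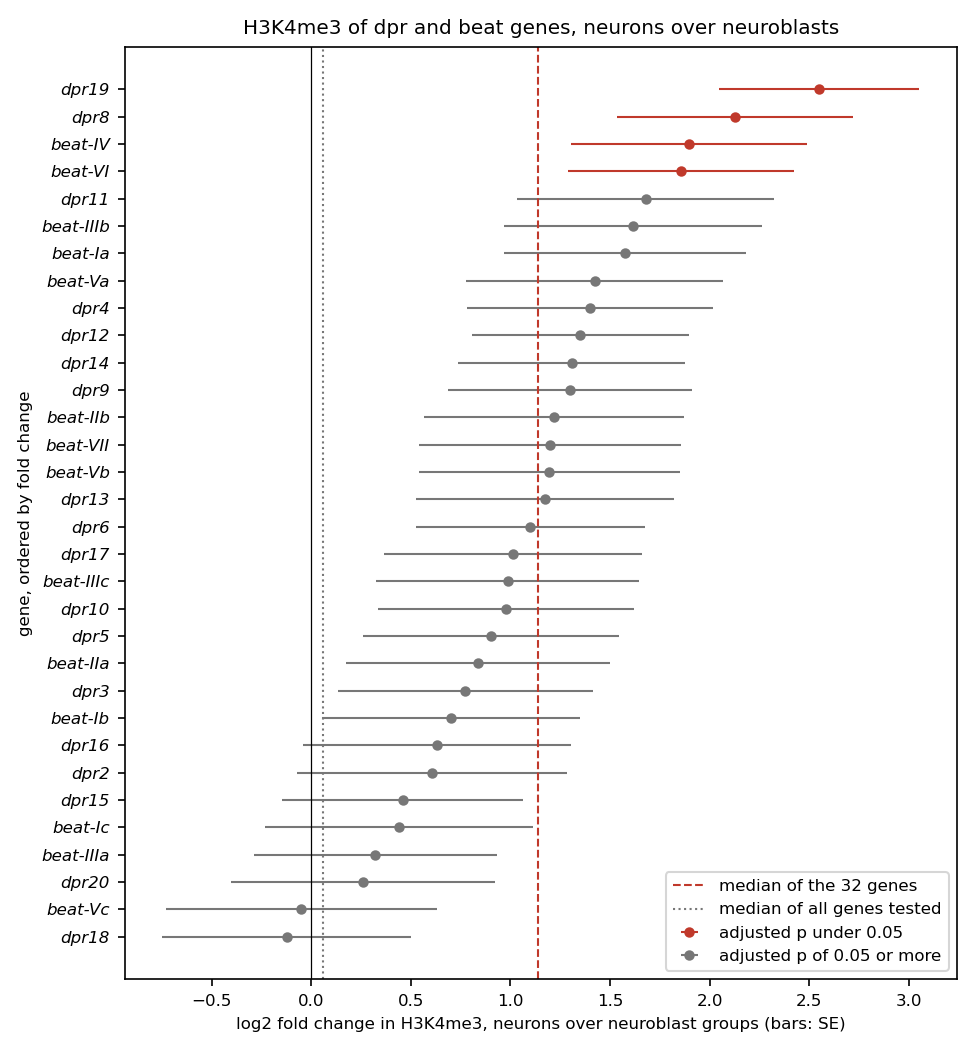
Log2 fold change in H3K4me3 in neurons over the mean of the 3 neuroblast groups for each of the 32 genes (points, bars are SE from edgeR), ordered by size, with the median of the 32 genes (dashed, 1.14) and of all genes tested (dotted, 0.06). The 4 genes past the threshold are in red, and 30 of the 32 points lie above 0.

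Among the members that did not pass with TMM scaling, dpr11 had the next largest difference. Dpr11 pairs with DIP-gamma in the colour-sensing circuit of the eye. It stood at 19.6 and 24.3 CPM in neurons, 18.2 and 3.73 CPM in brat numb RNAi, 3.45 and 7.07 CPM in brat RNAi, and 5.80 and 5.59 CPM in type I neuroblasts (log2 fold change 1.68 ± 0.65 SE, edgeR adjusted p = 0.174). Both neuron libraries were above all others, with brat numb RNAi replicate 1 just under them. beat-Ia, the motor axon gene, stood at 27.6 and 28.5 CPM in neurons, 15.5 and 4.24 CPM in brat numb RNAi, 5.78 and 14.1 CPM in brat RNAi, and 11.1 and 6.30 CPM in type I neuroblasts (1.58 ± 0.61 SE, edgeR adjusted p = 0.179). Its neuron libraries were nearly equal and above all others.

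beat-IIIb stood at 17.0 and 23.2 CPM in neurons, 16.0 and 4.24 CPM in brat numb RNAi, 4.16 and 2.25 CPM in brat RNAi, and 12.4 and 4.53 CPM in type I neuroblasts (log2 fold change 1.62 ± 0.65 SE, edgeR adjusted p = 0.218). The neuron libraries were on top, and both brat RNAi libraries were the lowest of all. dpr12, whose protein works with DIP-delta in the mushroom body, had the second highest level of the 32. It stood at 48.3 and 50.8 CPM in neurons, 16.4 and 18.6 CPM in brat numb RNAi, 8.51 and 17.7 CPM in brat RNAi, and 36.0 and 28.6 CPM in type I neuroblasts (1.35 ± 0.54 SE, edgeR adjusted p = 0.219). Its groups were in the order neurons, type I, then both RNAi groups, with no overlap between these 3 levels.

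dpr14, the third highest member, stood at 22.3 and 44.7 CPM in neurons, 16.0 and 9.28 CPM in brat numb RNAi, 12.1 and 13.8 CPM in brat RNAi, and 17.1 and 13.2 CPM in type I neuroblasts. dpr9 had 20.9 and 28.6 CPM in neurons, 21.4 and 6.35 CPM in brat numb RNAi, 4.16 and 7.39 CPM in brat RNAi, and 18.4 and 7.64 CPM in type I neuroblasts. Neuron libraries led at dpr14, while at dpr9 brat numb RNAi replicate 1 fell between the neuron libraries. At the bottom stood dpr15, with 5.88 and 5.52 CPM in neurons, 5.77 and 2.12 CPM in brat numb RNAi, 5.17 and 5.46 CPM in brat RNAi, and 4.97 and 2.04 CPM in type I neuroblasts. beat-IIIa was likewise low, at 5.74 and 7.84 CPM in neurons, 8.83 and 4.54 CPM in brat numb RNAi, 5.88 and 5.78 CPM in brat RNAi, and 4.01 and 4.26 CPM in type I neuroblasts. For dpr15 and beat-IIIa the neuron libraries overlapped those of neuroblasts. Averaged over the 8 libraries, the members between these ends ranged from 7.00 CPM (dpr8) to 18.0 CPM (dpr6). Neighbours differed to varying degrees: dpr17 averaged 12.2 CPM and dpr15, next to it, 4.62 CPM, while beat-IIb and beat-IIa stood at 9.18 to 11.6 CPM and the beat-V group at 8.24 to 11.6 CPM.

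**Figure D3:**
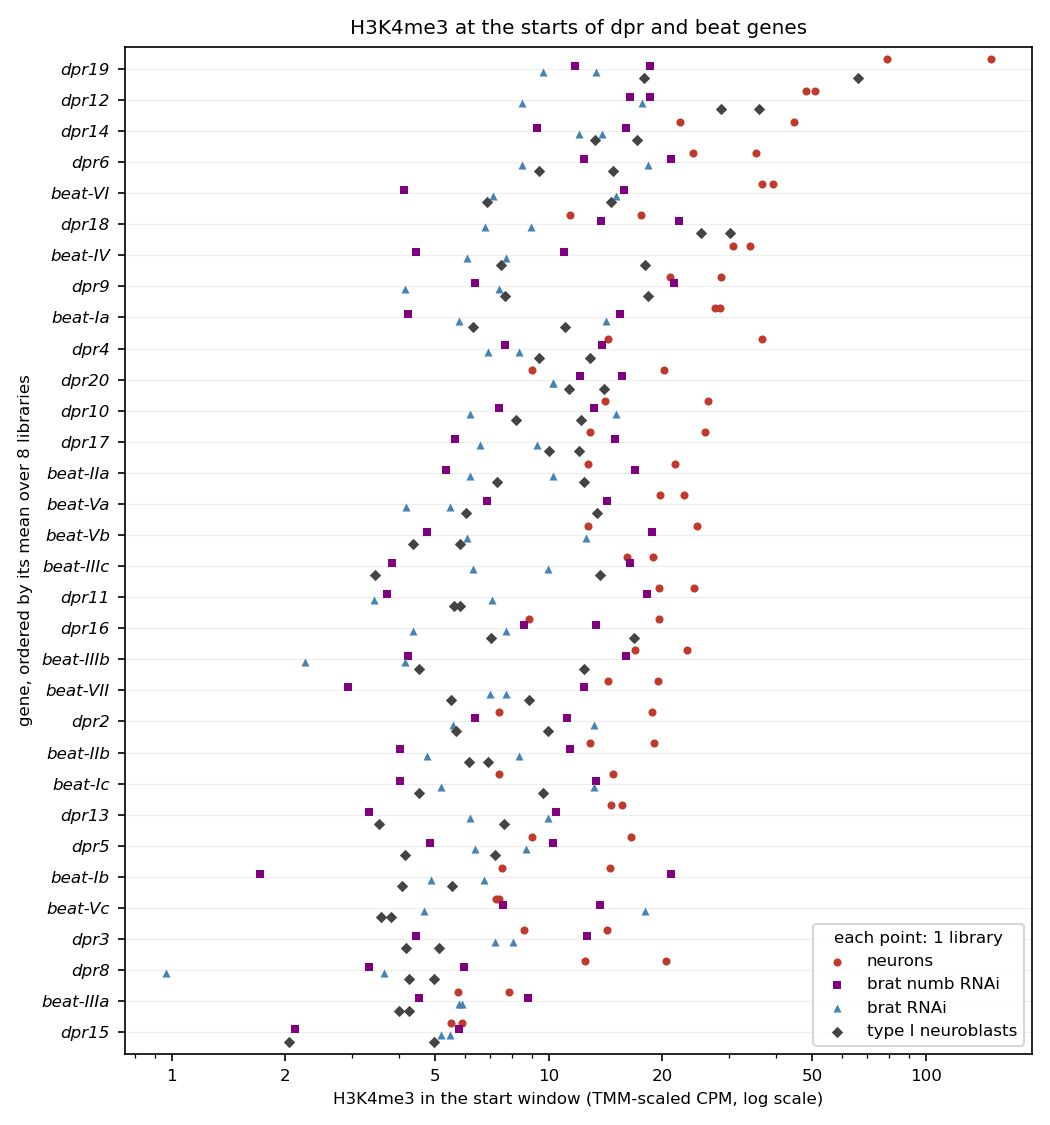
H3K4me3 in the start window of each dpr and beat gene, in TMM-scaled CPM on a log axis, with 1 point per library and the 4 groups as colours, ordered by the mean over 8 libraries from dpr15 (4.62 CPM, bottom) to dpr19 (45.7 CPM, top). Neuron points lie to the right of all neuroblast points for 15 genes.

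Against type I neuroblasts alone, no member was called for neurons, where 0.451% of all genes were. By an unadjusted p under 0.05, 6 members were higher in neurons (dpr19, dpr11, dpr8, beat-Ia, beat-Vb and beat-VI) and none lower, beside 2.04% of all genes higher and 5.19% lower; DESeq2 called 0. Both neuron libraries lay above both type I libraries in 27 of the 32 genes and in 23.6% of all genes. The neuron mean was higher for 31 of the 32 and for 59.5% of all genes. The median log2 fold change of the 32 was 1.15, beside 0.24 for all genes. For the other genes over 10 kb the mean was higher in 76.1% and the median was 0.54. At an unadjusted p under 0.05, 129 of these 1827 genes were higher. The labels carry an SBa code for each library whose meaning is not stated, and ratios were also taken between libraries with the same code. Within code 27 the median log2 ratio of neurons to type I was 0.47 (29 of 32 genes higher) and within code 51 it was 1.72 (31 of 32), beside 0.08 and 0.25 for all genes. Of all 14185 genes, 7711 and 8180 were higher in these ratios. Neurons over brat RNAi within code 27 had a median of 1.03, with 30 of 32 higher, beside -0.04 and 6743 of 14185 for all genes. Blocking on the SBa code left only 1 residual degree of freedom and called 23 of the 32 between neurons and type I, all but dpr18 higher, beside 4611 of all 14185 genes.

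The known partners of these proteins were measured in the same test. Of 8 Side family genes, 4 rose in neurons relative to the mean of the neuroblast groups and none fell. Of 11 genes on the DIP list, 1 rose and none fell. That list includes cDIP, a common interactor of Dpr proteins, which is counted with the DIP genes here and below. Means were higher in neurons for 7 of 8 Side and 10 of 11 DIP genes, with medians of 1.39 and 0.87 on the log2 scale, beside 55.3% and 0.06 for all genes. The exceptions were side-III and cDIP, so every other gene on the DIP list had a higher mean in neurons. side, the founding gene of its family and the ligand of Beat-Ia, stood at 45.0 and 31.1 CPM in neurons, 20.4 and 8.47 CPM in brat numb RNAi, 5.27 and 5.46 CPM in brat RNAi, and 18.1 and 13.0 CPM in type I neuroblasts. Its neuron libraries were above all others and its brat RNAi libraries were the lowest. The log2 fold change was 1.84 ± 0.56 (SE, edgeR adjusted p = 0.0379).

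side-II, the partner gene of beat-VI, stood at 41.4 and 43.1 CPM in neurons, 10.1 and 5.65 CPM in brat numb RNAi, 4.66 and 14.5 CPM in brat RNAi, and 22.8 and 7.81 CPM in type I neuroblasts. Its neuron libraries were nearly equal, as at beat-VI, and its log2 fold change was 2.03 ± 0.56 (SE, edgeR adjusted p = 0.0132). side-V and side-VIII had log2 fold changes of 2.08 ± 0.54 and 2.16 ± 0.55 (SE), with edgeR adjusted p of 0.00691 and 0.00561. DIP-eta stood at 31.7 and 34.6 CPM in neurons, 9.91 and 6.96 CPM in brat numb RNAi, 3.95 and 4.18 CPM in brat RNAi, and 12.4 and 4.71 CPM in type I neuroblasts, with no overlap between neurons and the rest (2.32 ± 0.61 SE, edgeR adjusted p = 0.00732). DIP-epsilon had a log2 fold change of 1.79 ± 0.63 (SE) and an edgeR adjusted p of 0.0981. None of these 5 calls held without neuron replicate 1, without neuron replicate 2 or without type I replicate 2, while over all left-out libraries the log2 fold changes ran from 2.07 to 2.60 for DIP-eta, 1.53 to 2.07 for side, 1.79 to 2.35 for side-II, 1.96 to 2.25 for side-V and 1.81 to 2.55 for side-VIII.

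Among the neuroblast groups, H3K4me3 of the families showed no call by edgeR. In brat RNAi against type I, 0 of 32 genes passed, where 0.0987% of all genes did. DESeq2 called 1, dpr18, beside 120 of all genes. The unadjusted p was under 0.05 for 2 members, dpr19 and dpr18, both lower, beside 2.13% of all genes lower and 3.39% higher. Both brat RNAi libraries lay below both type I libraries in 10 of the 32 and in 21.6% of all genes. The median log2 fold change was -0.05, beside -0.02 for all genes. Within code 27 it was -0.74, with 6 of 32 higher, beside 0.05 and 7357 of 14185 for all genes. In brat numb RNAi against type I no gene of the genome was called (0.00%), and 1 member, dpr19, was lower at an unadjusted p under 0.05, with 1.59% of all genes lower and 1.68% higher; DESeq2 called 0 members. In brat numb RNAi against brat RNAi no gene was called (0.00%), 0 members had an unadjusted p under 0.05 in edgeR, beside 0.916% of all genes higher and 0.599% lower, and DESeq2 called 0. The 2 brat numb RNAi libraries stood apart at these genes, with replicate 1 above replicate 2 in 31 of 32 and a median log2 gap of 1.30. The median of all genes was also higher in replicate 1, at 22.2 against 13.7 CPM. Replicate 1 held 3660892 counts and replicate 2 held 11141538. The direction between the RNAi groups followed the library: the median was 0.33 over all libraries and -0.81 within code 68. For all genes these medians were 0.01 and 0.06.

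dpr18 differed from the rest of the family, with its highest H3K4me3 in type I neuroblasts. It stood at 11.4 and 17.6 CPM in neurons, 22.2 and 13.7 CPM in brat numb RNAi, 6.79 and 9.00 CPM in brat RNAi, and 25.3 and 30.3 CPM in type I neuroblasts. Both type I libraries were above all others, and both brat RNAi libraries were below all others. In brat RNAi over type I the log2 fold change was -1.82 ± 0.79 (SE, edgeR adjusted p = 0.775), and DESeq2 called it (-1.90, adjusted p = 0.02). dpr19 had -1.86 ± 0.70 in the same comparison (SE, edgeR adjusted p = 0.611), and without type I replicate 1 this value was -0.62.

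H3K27me3 over the same genes, given as TMM-scaled CPM per kb of gene model, averaged from 6.36 (dpr14) to 21.3 (beat-IV) over the 8 libraries. The median member stood at 12.0 and 9.27 CPM per kb in neurons, 8.99 and 8.71 in brat numb RNAi, 14.9 and 13.6 in brat RNAi, and 12.3 and 9.97 in type I neuroblasts, beside 8.47 to 8.71 for all genes over the 8 libraries. The median percentile among all genes was 71.9 and 62.7 in neurons, 54.6 and 50.9 in brat numb RNAi, 66.3 and 77.1 in brat RNAi, and 63.2 and 60.7 in type I neuroblasts. Brat numb RNAi was the lowest group on both scales. For scale, the hemocyte gene srp, taken after its values were seen, stood at 85.0 and 18.5 CPM per kb in neurons, 31.3 and 40.3 in brat numb RNAi, 52.1 and 28.7 in brat RNAi, and 56.4 and 33.9 in type I neuroblasts, above every member in each library.

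beat-IV carried the most H3K27me3 of the 32 in every library except neuron replicate 1, where beat-IIIc was higher. It stood at 18.1 and 16.7 CPM per kb in neurons, 16.4 and 15.8 in brat numb RNAi, 33.2 and 27.4 in brat RNAi, and 23.7 and 19.2 in type I neuroblasts, at percentiles 88.6 to 97.6 among all genes. The 4 groups did not overlap, in the order brat RNAi, type I, neurons, brat numb RNAi. dpr12 came next on average, with 12.0 and 8.66 CPM per kb in neurons, 12.3 and 13.0 in brat numb RNAi, 20.9 and 14.8 in brat RNAi, and 16.1 and 14.2 in type I neuroblasts. beat-IIIa, second lowest of the 32 in H3K4me3, had 15.8 and 11.4 CPM per kb in neurons, 12.4 and 11.3 in brat numb RNAi, 16.5 and 16.5 in brat RNAi, and 14.8 and 12.5 in type I neuroblasts. For both, the neuron libraries were far apart.

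The lowest H3K27me3 per kb was at 3 short dpr genes, dpr14, dpr18 and dpr19. dpr14 stood at 4.86 and 7.28 CPM per kb in neurons, 5.40 and 6.20 in brat numb RNAi, 7.13 and 6.49 in brat RNAi, and 7.08 and 6.46 in type I neuroblasts, with little difference between groups. dpr19 had 6.06 and 9.64 CPM per kb in neurons, 5.33 and 6.39 in brat numb RNAi, 9.62 and 7.23 in brat RNAi, and 3.79 and 5.82 in type I neuroblasts. Its mean was lowest in type I, where its mean H3K4me3 was second to that of neurons. The type I libraries overlapped those of brat numb RNAi for both marks, with H3K4me3 at 66.3 and 17.8 CPM against 18.6 and 11.7 CPM. Across the 32 genes the Spearman rank correlation between mean H3K4me3 and mean H3K27me3 per kb was -0.21, a weak relation over points that share the same libraries and, in part, the same neighbourhoods. Neighbouring genes were close in H3K27me3 per kb averaged over the 8 libraries: 10.6 to 11.2 in the beat-I group, 10.5 to 11.0 in the beat-V group, 12.2 to 12.5 in the beat-II pair and 10.2 at both dpr6 and dpr10. The beat-III group was wider, at 10.2 to 13.9.

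**Figure D4:**
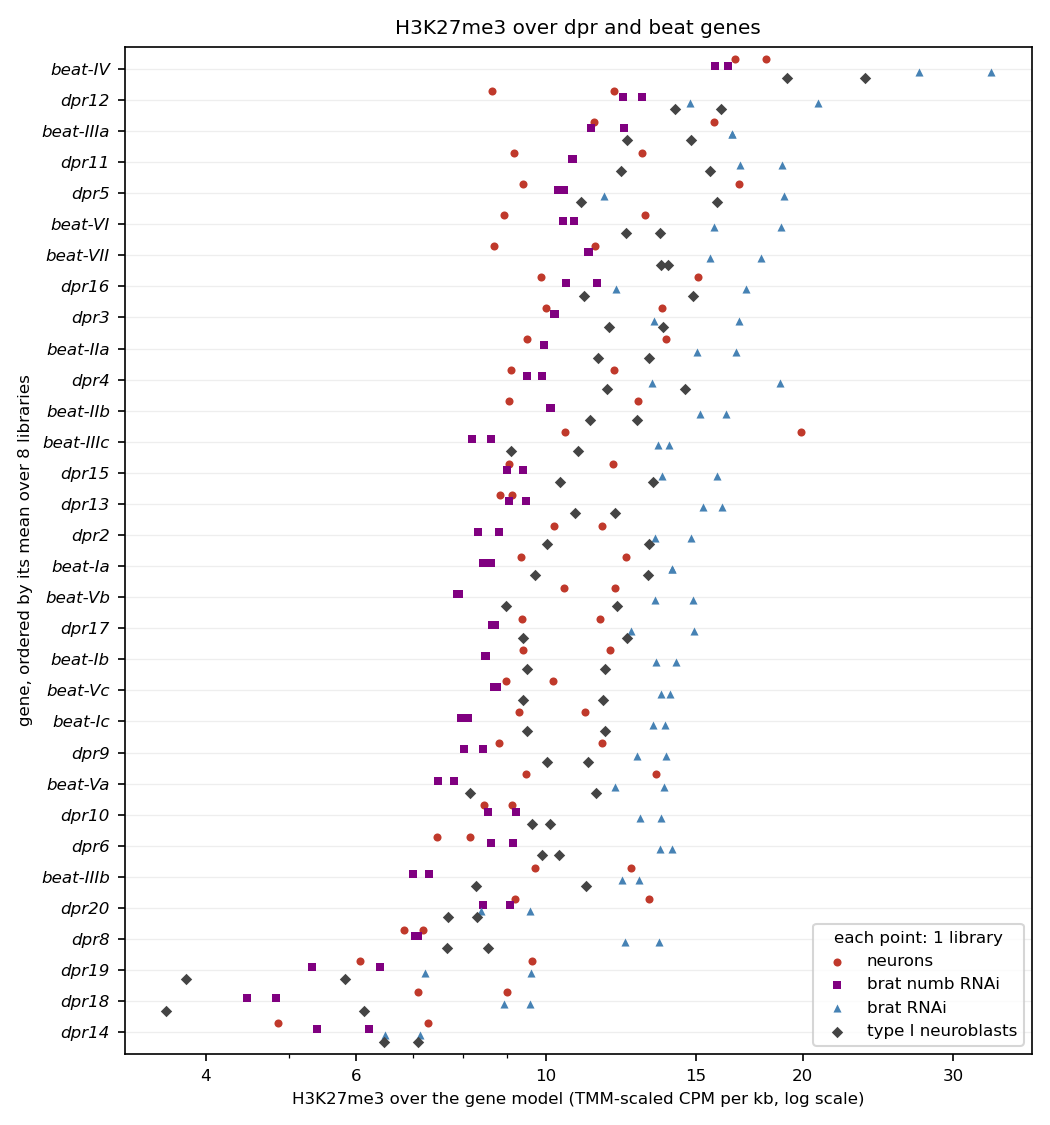
H3K27me3 over each dpr and beat gene model, in TMM-scaled CPM per kb on a log axis, with 1 point per library, ordered by the mean over 8 libraries from dpr14 (6.36, bottom) to beat-IV (21.3, top). The brat RNAi points lie to the right of the brat numb RNAi points for 31 genes.

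H3K27me3 was lower in brat numb RNAi than in brat RNAi across both families, without a gene past the threshold. No gene of the genome was called in this comparison by edgeR (0.00%), the smallest adjusted p of a member being 0.195 (dpr8). At an unadjusted p under 0.05, 26 of the 32 were lower and none higher, all 14 beat genes among them, where 10.1% of all genes were lower and 8.61% higher. Of the other genes over 10 kb, 649 of 1828 were lower at that p, and 76.3% had a lower mean. DESeq2 called 3 members as lower: dpr8 (adjusted p = 0.03), beat-IV (0.037) and dpr13 (0.049). Of all genes it called 88 as lower. All 32 means were lower in brat numb RNAi, as were 50.1% of all genes. The median log2 fold change was -0.69, beside 0.00 for all genes and -0.41 for the other genes over 10 kb. Both brat numb RNAi libraries lay below both brat RNAi libraries in 31 of the 32 genes, dpr20 being the exception, and in 29.7% of all genes; by rank within the library the counts were 28 of 32 and 24.3%. Within code 68 the median log2 ratio was -0.63, with 1 of 32 genes higher, beside 0.03 and 7384 of 14182 for all genes.

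The size of this difference depended on the scaling, and so did the count of members at an unadjusted p under 0.05. By edgeR with loess offsets 7 of the 32 were lower at that p, beside 1299 of all genes. With library totals 10 of the 32 were, beside 220 of all genes. With offsets fitted as a loess curve on abundance the median of the members was -0.26, and with library totals it was -0.34 while the median of all genes was 0.33. dpr8 stood at 7.09 and 7.04 CPM per kb in brat numb RNAi against 13.6 and 12.4 in brat RNAi (log2 fold change -0.88 ± 0.15 SE, edgeR adjusted p = 0.195). It is the longest member, and its replicates agreed within each group. beat-IV, with the values above, had -0.91 ± 0.19 (SE, edgeR adjusted p = 0.197). beat-Vb stood at 7.92 and 7.88 CPM per kb in brat numb RNAi against 14.9 and 13.4 in brat RNAi (-0.84 ± 0.21 SE, edgeR adjusted p = 0.197). dpr18 had the largest difference, with 4.47 and 4.83 CPM per kb in brat numb RNAi against 9.59 and 8.95 in brat RNAi (-0.99 ± 0.33 SE, edgeR adjusted p = 0.214).

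**Figure D5:**
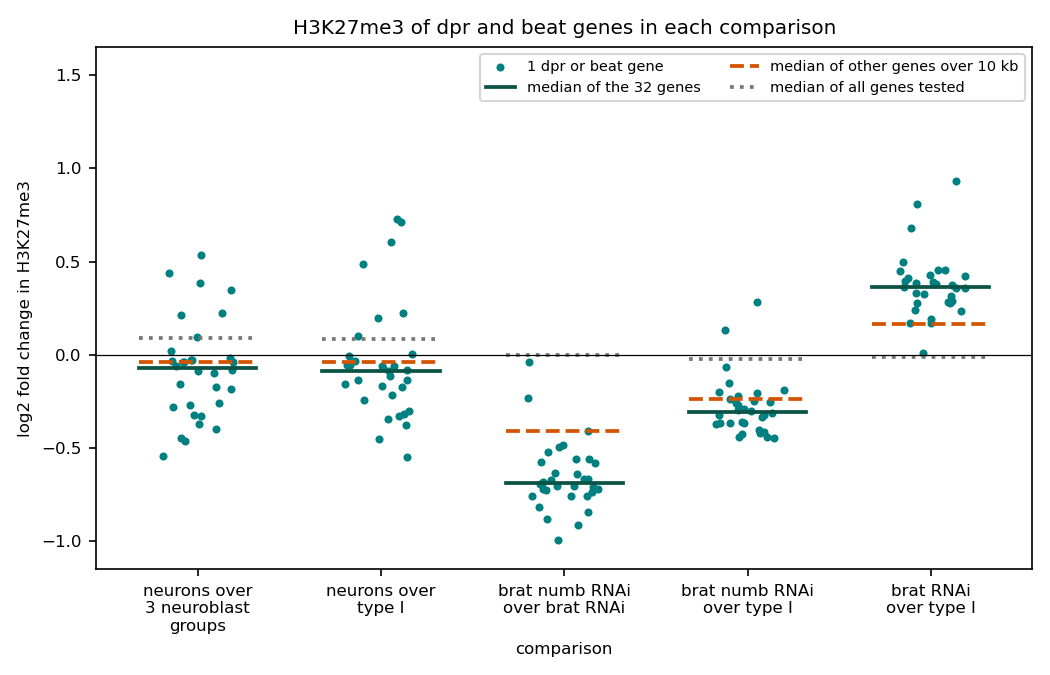
Log2 fold change in H3K27me3 of each of the 32 genes (points) in 5 comparisons, with the median of the 32 genes (solid), of the other genes over 10 kb (dashed) and of all genes tested (dotted). In brat numb RNAi over brat RNAi all points are below 0, with a median of -0.69, and in brat RNAi over type I all are above 0, with a median of 0.36.

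The other side of this contrast shares the brat RNAi libraries. In brat RNAi against type I neuroblasts, all 32 means were higher, where 49.0% of all genes were, with a median log2 fold change of 0.36 beside -0.01 for all genes and 0.17 for the other genes over 10 kb. No gene was called by edgeR (0.00%) and DESeq2 called 0 members. An unadjusted p under 0.05 was found for 7 of the 32, all higher (dpr19, dpr13, dpr6, dpr10, beat-IV, dpr8 and dpr18), where 3.12% of all genes were higher and 2.82% lower, and 198 of the 1828 other genes over 10 kb were higher. Both brat RNAi libraries lay above both type I libraries in 26 of the 32 and in 15.3% of all genes. Within code 26 the median was 0.30, with all 32 of 32 higher, beside -0.03 and 6798 of 14182 for all genes. dpr8 stood at 13.6 and 12.4 CPM per kb in brat RNAi against 8.57 and 7.68 in type I (0.68 ± 0.15 SE, edgeR adjusted p = 0.621), and dpr18 at 9.59 and 8.95 against 6.14 and 3.59 in type I (0.93 ± 0.33 SE, edgeR adjusted p = 0.745). dpr18 thus had lower H3K4me3 and higher H3K27me3 means in brat RNAi than in type I, and so did dpr19 (H3K27me3 log2 fold change 0.81 ± 0.36 SE, edgeR adjusted p = 0.839). This was not particular to dpr18 and dpr19. H3K4me3 means were lower in brat RNAi for 17 of the 32, where 50.7% of all genes were, and H3K27me3 means were higher for all 32.

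In brat numb RNAi against type I, 30 of the 32 means were lower, where 51.7% of all genes were, with a median log2 fold change of -0.31 beside -0.02 for all genes and -0.24 for the other genes over 10 kb. No gene was called by edgeR (0.00%) or DESeq2, and 1 member, dpr2, was lower at an unadjusted p under 0.05, with 1.86% of all genes lower and 1.10% higher, and 74.3% of the other genes over 10 kb had a lower mean. Both brat numb RNAi libraries lay below both type I libraries in 28 of the 32 and in 29.3% of all genes. No SBa code is shared between these groups.

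In neurons H3K27me3 differed little from the neuroblast mean, and the 2 neuron libraries disagreed. Replicate 1 was above replicate 2 in 29 of the 32 genes, by a median of 0.40 on the log2 scale. Against the mean of the neuroblast groups the median log2 fold change was -0.07, beside 0.09 for all genes, and no gene was called by edgeR (0.00%); DESeq2 called 0 members. At an unadjusted p under 0.05, 1 member (beat-IIIc) was higher, with 7.60% of all genes higher, and 5 (dpr12, dpr13, dpr6, beat-VII and dpr8) were lower, with 6.85% of all genes lower. dpr6, whose protein binds DIP-alpha as that of its neighbour dpr10 does, stood at 7.47 and 8.16 CPM per kb in neurons, 9.15 and 8.64 in brat numb RNAi, 13.6 and 14.1 in brat RNAi, and 10.4 and 9.90 in type I neuroblasts. Both of its neuron libraries were below all neuroblast libraries (-0.46 ± 0.13 SE, edgeR adjusted p = 0.275), and its neuron H3K4me3, at 35.4 and 24.1 CPM, was above all neuroblast libraries. dpr12 had a log2 fold change in H3K27me3 of -0.54 ± 0.19 (SE, edgeR adjusted p = 0.311). beat-IIIc went the other way with 19.9 and 10.5 CPM per kb in neurons, 8.64 and 8.19 in brat numb RNAi, 13.5 and 14.0 in brat RNAi, and 10.9 and 9.11 in type I neuroblasts (0.54 ± 0.21 SE, edgeR adjusted p = 0.326). Its high mean came from neuron replicate 1. Over the left-out libraries its log2 fold change ran from 0.03 to 0.92.

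Against type I alone, no member was called for H3K27me3 in neurons by edgeR (0.00% of all genes) or DESeq2. With an unadjusted p under 0.05, 1 was higher (beat-IIIc), with 3.94% of all genes, and 3 were lower (dpr12, dpr6 and beat-VII), with 5.06%. The median was -0.09, beside 0.08 for all genes. Within code 26 it was -0.07, also beside 0.08 for all genes. Both neuron libraries lay below both type I libraries in 7 of the 32 and in 23.9% of all genes. In the test of any difference among the 4 groups no gene was called by edgeR (0.00%). There 18 members had an unadjusted p under 0.05, where 12.3% of all genes did. Of the other genes over 10 kb, 584 of 1828 did. DESeq2 called 1 member, dpr8, beside 277 of all genes.

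For H3K27me3 some partner genes also differed between the neuron libraries. DIP-eta stood at 36.0 and 11.8 CPM per kb in neurons, 10.5 and 10.8 in brat numb RNAi, 17.6 and 14.5 in brat RNAi, and 15.3 and 12.8 in type I neuroblasts. DIP-zeta stood at 26.9 and 11.4 in neurons, 8.71 and 8.89 in brat numb RNAi, 15.4 and 12.6 in brat RNAi, and 13.3 and 9.12 in type I, and DIP-beta had 16.8 and 8.11 in neurons, 6.45 and 6.17 in brat numb RNAi, 14.5 and 12.5 in brat RNAi, and 9.31 and 7.72 in type I. In each of the 3, neuron replicate 1 was the highest of the 8 libraries and replicate 2 lay among the neuroblast libraries. The Side genes side-VI, side-II and side-VIII had their highest values in brat RNAi, at 15.3 and 14.4, 14.2 and 14.4, and 16.0 and 13.8 CPM per kb. In brat numb RNAi against brat RNAi, 11 of 11 DIP and 7 of 8 Side means were lower, with medians of -0.62 and -0.58 on the log2 scale and no call.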

How the data were processed

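Per the labels, libraries were H3K4me3 and H3K27me3 MNase ChIP-seq of L3 larval brain cells. The authors deposited whole-number read counts per gene, not normalized, taken in a 501-base start window (H3K4me3) or the whole gene model (H3K27me3). The submitters' processing notes name the build dm3, and list bedtools 2.25.0, Bowtie2 2.2.4 and deepTools 2.5.0.1. Counting settings, strand and duplicate handling are not given in the sources used here. The 14 input samples were not used here and nothing was subtracted.

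Each mark's 8 libraries went into a single edgeR 4.0.16 fit under R 4.3.3 (robust quasi-likelihood F-test, TMM scaling, the default low-count filter, group means, 4 residual degrees of freedom), leaving 14185 genes for H3K4me3 and 14182 for H3K27me3, all 32 members among them. Adjustment was Benjamini-Hochberg, over every gene tested for a mark. The SE was computed as |log2 fold change| / sqrt(F); edgeR moderates it toward genes of like abundance. The fitting script was tested on simulated data. DESeq2 1.42.0, other scalings, no low-count filter, blocks and left-out libraries were alternatives. Summaries used Python.

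Named are the members and partner genes past the threshold, for each mark the 6 members with the largest range of group means and the 3 highest and 3 lowest in level, and otherwise up to 3 genes per partner family. Any further gene was picked with its values in view. DIP-lambda (ambiguous name) and the chromosome 4 marker bt were left out. The lists used thus held 11 DIP genes (cDIP counted among them), 8 Side genes and 4 muscle genes. Members, gene lists and tests were chosen with earlier results of these data known.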

Additional observations from a re-analysis of the deposited data

How the results depend on the processing

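With the SBa code as a block (1 residual degree of freedom for H3K4me3; for H3K27me3 no residual was left and no test was run), H3K4me3 calls among the members were 23 in neurons against type I (4611 of all 14185 genes), 4 in brat RNAi against type I (572), 5 in brat numb RNAi against brat RNAi (3815), 23 in neurons against the neuroblast mean (3828) and 26 among the 4 groups (6949). For H3K4me3, DESeq2 called 1 member in brat RNAi against type I, 8 in neurons against the neuroblast mean and 5 among the 4 groups. For H3K27me3 it called 3 in brat numb RNAi against brat RNAi and 1 among the 4 groups. Among the 4 groups it called 553 of all genes for H3K4me3 and 277 for H3K27me3. In neurons against the neuroblast mean, H3K4me3 calls were 1 with library totals (1134 of all genes) and 6 with loess offsets (681). Among the 4 groups, H3K4me3 calls were 2 with DESeq2 size factors (320 of all genes) and 0 with loess offsets (6). The replicate number did not pair all groups: for H3K4me3, same-numbered deviations correlated at 0.45 to 0.74 among neurons, brat RNAi and type I, whose replicate 1 libraries share an SBa code, and at -0.62 to -0.31 between brat numb RNAi and the others. As a replicate block it changed no H3K4me3 count of the members. For H3K27me3 it gave 2 calls in brat numb RNAi against brat RNAi (94 of all genes) and 1 among the 4 groups (45). Leaving out 1 library changed the calls among the members, for both marks, in neurons against the neuroblast mean and among the 4 groups. The number called over all genes changed as well. Loess offsets moved H3K4me3 medians to 0.45 (neurons against type I) and -0.71 (brat RNAi against type I), and H3K27me3 medians to 0.18 (brat RNAi against type I), -0.04 (brat numb RNAi against type I), -0.26 (brat numb RNAi against brat RNAi) and 0.11 (neurons against the neuroblast mean, a change of sign). The loess medians also changed sign for H3K4me3 in brat numb RNAi against type I (-0.81) and for H3K27me3 in neurons against type I (0.12). With library totals, the H3K27me3 median in brat numb RNAi was -0.10 relative to type I and -0.34 relative to brat RNAi. Without 1 library the medians ran from 0.47 to 1.46 (H3K4me3, neurons against the neuroblast mean), from -0.71 to -0.59 (H3K27me3, brat numb RNAi against brat RNAi) and from -0.27 to 0.07 (H3K27me3, neurons against the neuroblast mean). Over all genes, DESeq2 called 376 for H3K4me3 in neurons against type I (edgeR 64), 120 in brat RNAi against type I (14) and 784 in neurons against the neuroblast mean (458); for H3K27me3 it called 92 in brat numb RNAi against brat RNAi, 41 in brat RNAi against type I, 52 in neurons against type I and 216 in neurons against the neuroblast mean (0 each in edgeR). Library totals shifted the H3K4me3 median of all genes to 0.61 in neurons against type I and to 0.83 in brat numb RNAi against type I. The cause was not tested. Low H3K4me3 counts, down to 3 reads at dpr8, limit the precision of single genes.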
